A study of Homo sapiens with 6 samples.

Results

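The activator protein 1 (AP-1) and BATF transcription factors were examined in RPMI8226, a line of human multiple myeloma cells with the wild-type genotype. The cells had received 100 nM GST-PTR1, in which glutathione-S-transferase (GST) carries a domain, PTR1, of the extracellular matrix protein HAPLN1, or 100 nM GST alone as the negative control, in both cases for 6 hr. RNA-Seq was done on 3 biological replicates of each treatment in this single cell line, so the 6 libraries show its response at 1 dose and 1 time. The group comprised 10 of the 63677 genes in the count table, chosen by name: the JUN family (JUN, JUNB and JUND), the FOS family (FOS, FOSB, FOSL1 and FOSL2), ATF3, and the BATF family members BATF and BATF3.

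AP-1 proteins carry a basic region that contacts DNA and a leucine zipper through which they pair. FOS, BATF and BATF3 proteins need a partner, most often a JUN protein, whereas JUN proteins can also pair with each other. Many AP-1 genes are early response genes, switched on shortly after a growth factor, cytokine or stress signal through MAP kinases and factors already present in the cell. In lymphoid cells, BATF with a JUN protein joins IRF4 or IRF8 on composite DNA elements and is known for its part in T helper and antibody-producing cells.

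The promoters of BATF and JUNB are shown because these genes had the largest rises of the 10. Those of JUN, ATF3 and JUND are shown because they were the only ones, of the 8 genes with a RefSeq entry, to hold any of the motifs searched. Each run is the 250 bases before the start site in GRCh38.p14, written 5′ to 3′ on the strand of the gene. BATF lies at chr14:75522219-75522468 (plus strand), JUNB at chr19:12791236-12791485 (plus), JUN at chr1:58784048-58784297 (minus), ATF3 at chr1:212565157-212565406 (plus) and JUND at chr19:18281623-18281872 (minus). Capitals mark a motif match. The bases just after the window were found in an annotated transcript of the gene for each promoter shown except JUNB. For JUNB the same search found no match, so the start site used for it has no such support.
BATF: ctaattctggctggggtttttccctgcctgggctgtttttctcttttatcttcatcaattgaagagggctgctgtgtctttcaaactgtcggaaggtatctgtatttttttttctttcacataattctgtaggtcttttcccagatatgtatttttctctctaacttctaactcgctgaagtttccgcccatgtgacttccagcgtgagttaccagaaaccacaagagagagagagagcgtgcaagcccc
JUNB: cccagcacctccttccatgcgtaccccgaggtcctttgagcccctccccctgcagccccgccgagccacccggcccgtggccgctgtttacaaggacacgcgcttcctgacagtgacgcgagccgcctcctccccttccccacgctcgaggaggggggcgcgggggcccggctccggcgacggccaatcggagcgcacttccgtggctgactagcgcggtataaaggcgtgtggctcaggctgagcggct
JUN: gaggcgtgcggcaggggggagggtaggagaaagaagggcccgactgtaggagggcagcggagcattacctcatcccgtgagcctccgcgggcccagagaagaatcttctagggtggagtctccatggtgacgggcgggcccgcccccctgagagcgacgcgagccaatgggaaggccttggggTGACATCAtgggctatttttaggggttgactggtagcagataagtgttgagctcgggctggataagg
ATF3: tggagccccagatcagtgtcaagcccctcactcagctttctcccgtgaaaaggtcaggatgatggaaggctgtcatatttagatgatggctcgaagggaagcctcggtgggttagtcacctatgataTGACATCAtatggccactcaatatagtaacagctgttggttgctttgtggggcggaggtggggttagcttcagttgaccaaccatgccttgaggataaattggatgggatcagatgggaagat
JUND: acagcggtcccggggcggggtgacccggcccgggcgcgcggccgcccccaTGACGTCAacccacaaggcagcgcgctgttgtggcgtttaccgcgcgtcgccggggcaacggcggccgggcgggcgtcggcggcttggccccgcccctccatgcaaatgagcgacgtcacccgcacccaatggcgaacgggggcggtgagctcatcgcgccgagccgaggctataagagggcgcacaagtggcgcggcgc
Both strands were searched for TGANTCA, the element that AP-1 dimers bind, for TGACGTCA, the cAMP response element, for TGACATCA, the variant known from the JUN promoter, and for TTCNNNGAA, a STAT element. The NF-kB element and the CArG box of serum response factor were searched as well. TGACATCA was found in the JUN promoter and in the first of 2 ATF3 entries, and in 2.37% of 35116 promoters of this length. TGACGTCA was found in the JUND promoter and in 1.65% of all. None of the matches overlapped another. No promoter of the 8 genes, which also included FOS, FOSB and FOSL2, held TGANTCA (6.57% of all), TTCNNNGAA (6.57%), the NF-kB element (9.96%) or the CArG box (1.16%). A match is a description of the letters and was not tested for binding, and its absence from this window says nothing of binding elsewhere.

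The libraries held between 15202503 and 44688737 counts, and 3 counts were worth 0.0761 to 0.18 CPM, the counts of a gene relative to the library total. Libraries are numbered 1 to 3 within a treatment by increasing total, and values are given in that order. The totals were scaled by the trimmed mean of M-values (TMM). On this scale the median log2 fold change over 16926 tested genes was 0.01, and with plain library totals it was -0.19. Libraries of a treatment correlated at Pearson's r of 0.988 to 0.995 across genes. All 8 plasma cell markers were at 1 CPM or more in both treatments, whereas the summed level of 3 T cell markers was at most 0.12 CPM and that of 3 monocyte markers at most 1.32 CPM. That of 3 fibroblast markers was at most 0.481 CPM. The sum of 3 epithelial markers, mostly EPCAM, was 66.3 to 79.3 CPM with GST and 62.7 to 70 CPM with GST-PTR1.

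All 10 genes passed the filter on low counts, and 8 of them rose with GST-PTR1 while none fell (quasi-likelihood test of edgeR, threshold 0.05 on the adjusted p). JUN, JUNB, FOS, FOSL1, FOSL2, ATF3, BATF and BATF3 rose. JUND and FOSB did not pass the test. BATF3, with 5, 6 and 6 counts in the GST libraries, passed the filter only through its GST-PTR1 libraries. With at least 10 counts required in every library, 9 of the genes were tested, of which 7 rose. Over all tested genes, 20.6% passed, with 9.15% higher and 11.4% lower. The rise was at least 2-fold in 7 of the 10, against 3.68% of all tested genes. The treatments did not overlap in 8 of the 10, against 40.4% of all. The median log2 fold change of the 10 was 1.70. In bulk RNA, a change in the share of cells that express a gene and a change in RNA per cell cannot be told apart.

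**Figure D1:**
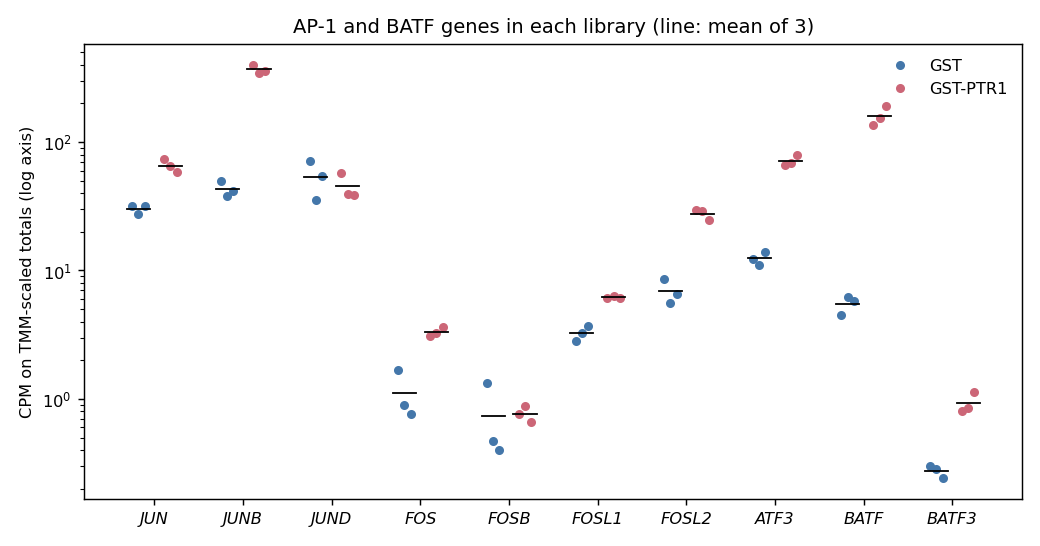
Level of each of the 10 genes in CPM on a log axis, 1 point per library (3 GST in blue, 3 GST-PTR1 in red) and a black line at the mean. JUND and FOSB are the genes whose points overlap between treatments, and BATF shows the widest gap, from a mean of 5.53 to 160 CPM.

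The JUN proteins are the shared partners of the family. JUNB (ENSG00000171223, GRCh37 chromosome 19, 12902310 to 12904124, plus strand) was at 49.7, 38 and 41.6 CPM in the GST libraries and at 401, 345 and 358 CPM in the GST-PTR1 libraries. Every GST-PTR1 library was far above every GST library. Means and SDs over 3 libraries were 43.1 ± 6.02 CPM and 368 ± 29.1 CPM. The fitted log2 fold change was 3.10 with a standard error (SE) of 0.13 (adjusted p = 6.55e-08, edgeR). Of its exon bases, 14.3% are shared with a gene on the opposite strand, and the counting was by strand.

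JUN (ENSG00000177606, chromosome 1, 59246465 to 59249785, minus strand), the founding member and a classical target of JNK signaling, was at 31.7, 27.4 and 31.8 CPM with GST and at 73.4, 64.6 and 58.5 CPM with GST-PTR1. The treatments did not overlap, but the step was smaller than that of JUNB. The log2 fold change was 1.11 (SE 0.12, edgeR adjusted p = 8.13e-05).

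JUND (ENSG00000130522, chromosome 19, 18390563 to 18392432, minus strand), often a constitutive member of the family, was at 71.7, 35.1 and 54.8 CPM with GST and at 57.8, 39.5 and 39.0 CPM with GST-PTR1. The treatments overlapped, and the smallest library of each treatment held the highest value. The log2 fold change was -0.25 (SE 0.23, edgeR adjusted p = 0.476), with a 95% interval of -0.76 to 0.27. Its sign turned when the smallest GST library was left out (0.01) and when the trend with GC content was removed (0.02). The exons of JUND were 69.7% GC, the 99.7 percentile of tested genes, whose median was 47.9%.

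The FOS family supplies partners that cannot pair with themselves. FOSL2 (ENSG00000075426, chromosome 2, 28615315 to 28640179, plus strand), which encodes FRA2, was at 8.60, 5.59 and 6.54 CPM with GST and at 29.5, 28.9 and 24.9 CPM with GST-PTR1. It was the FOS gene with the largest fitted rise, at a log2 fold change of 2.01 (SE 0.16, edgeR adjusted p = 8e-06). FOSL1 (ENSG00000175592, chromosome 11, 65659520 to 65668044, minus strand), which encodes FRA1, was at 2.83, 3.27 and 3.69 CPM with GST and at 6.11, 6.30 and 6.09 CPM with GST-PTR1. Its log2 fold change of 0.91 (SE 0.17, edgeR adjusted p = 0.00328) was the smallest of the 8 that rose, and the only one under 2-fold.

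FOS and FOSB, the early response genes of the family, were low in both treatments. FOS (ENSG00000170345, chromosome 14, 75745477 to 75748933, plus strand) had 28, 19 and 19 counts with GST and 69, 89 and 142 with GST-PTR1, which is 1.68, 0.90 and 0.762 against 3.10, 3.26 and 3.60 CPM. The treatments did not overlap, and the smallest GST library was nearest to the GST-PTR1 libraries. The log2 fold change was 1.63 (SE 0.28, edgeR adjusted p = 0.00204). FOSB (ENSG00000125740, chromosome 19, 45971253 to 45978437, plus strand) had 22, 10 and 10 counts with GST and 17, 24 and 26 with GST-PTR1, which is 1.32, 0.474 and 0.401 against 0.763, 0.879 and 0.66 CPM. The same GST library held the highest value of all 6, and the treatments overlapped. The log2 fold change was 0.14 (SE 0.42, edgeR adjusted p = 0.841), with a 95% interval of -0.79 to 1.07. It was 0.80 without the smallest GST library, -0.08 without the second and -0.19 without the third, and -0.07 with plain library totals. Neither a rise nor a fall of FOSB was thus detected, and the part of depth in this was not tested.

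ATF3 (ENSG00000162772, chromosome 1, 212738676 to 212794119, plus strand), a stress-induced member of the wider family that pairs with JUN proteins or with itself, was at 12.3, 11.1 and 14.0 CPM with GST. It was at 66.2, 69.3 and 79.9 CPM with GST-PTR1. The lowest GST-PTR1 library was well above the highest GST library. The log2 fold change was 2.52 (SE 0.13, edgeR adjusted p = 2.54e-07).

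BATF (ENSG00000156127, chromosome 14, 75988768 to 76013358, plus strand) was at 4.51, 6.26 and 5.82 CPM with GST and at 135, 153 and 192 CPM with GST-PTR1. The means, 5.53 ± 0.909 and 160 ± 29 CPM (SD, n = 3 each), differed by 29-fold. The log2 fold change was 4.85 (SE 0.18, edgeR adjusted p = 2.29e-08), and BATF ranked 62 of 16926 genes by log2 fold change. Its paralog BATF3 (ENSG00000123685, chromosome 1, 212859760 to 212873327, minus strand), best known from dendritic cells, had 5, 6 and 6 counts with GST and 18, 23 and 45 with GST-PTR1. BATF3 was near the limit of detection with GST, at 0.301, 0.284 and 0.241 CPM, and was at 0.808, 0.843 and 1.14 CPM with GST-PTR1. Its treatments did not overlap either, and the log2 fold change was 1.78 (SE 0.34, edgeR adjusted p = 0.00379).

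**Figure D2:**
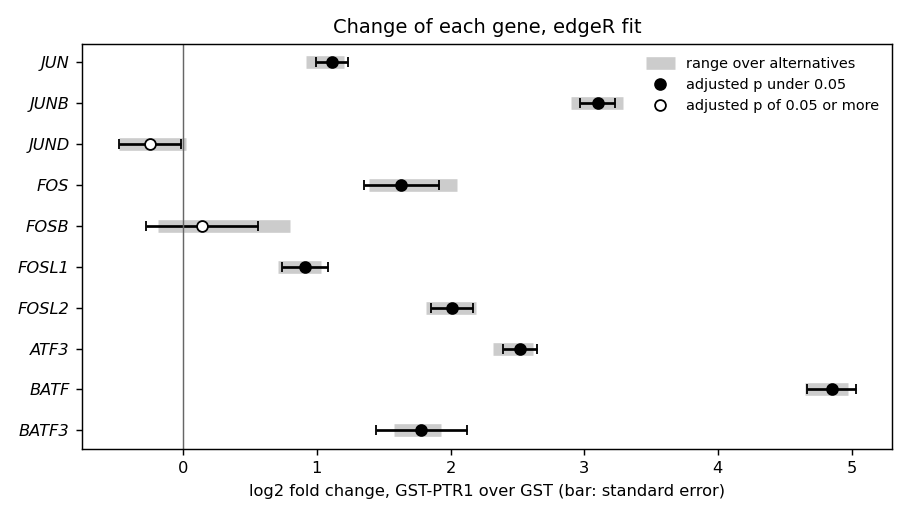
Log2 fold change of each gene, GST-PTR1 over GST, with its standard error as a bar. Filled points passed an adjusted p of 0.05, open points did not, and grey bands give the range over alternative settings. The band crosses 0 for JUND and FOSB, and BATF lies farthest right at 4.85.

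Dividing by exon length (RPKM on TMM-scaled totals) allows the genes to be set beside each other. With GST, mean RPKM ran in the order JUND (28.8), JUNB (23.7), JUN (9.12), BATF (5.64), ATF3 (3.12), FOSL1 (1.73), FOSL2 (0.965), FOS (0.344), FOSB (0.132) and BATF3 (0.101). Among neighbors in that order, the libraries of JUND and JUNB, of FOS and FOSB, and of FOSB and BATF3 overlapped, and those of the others did not. With GST-PTR1 the order was JUNB (203), BATF (163), JUND (24.3), JUN (19.7), ATF3 (17.9), FOSL2 (3.88), FOSL1 (3.27), FOS (1.03), BATF3 (0.343) and FOSB (0.138). Here JUNB and BATF overlapped, as did JUND with JUN and JUN with ATF3. BATF thus passed JUN and JUND, and FOSL2 passed FOSL1.

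The RPKM of the 10 genes summed to 86.5, 60.1 and 74.5 in the GST libraries and to 437, 413 and 460 in the GST-PTR1 libraries, 5.93-fold more. An exact two-sided permutation test over the 6 libraries gave p = 0.1, which is the smallest it can give with 3 against 3. BATF made up 7.97 ± 2.66% of the sum with GST and 37.3 ± 5.51% with GST-PTR1 (SD, n = 3 each), and JUNB 32.4 ± 2.14% and 46.5 ± 3.82%. Both shares were higher in every GST-PTR1 library. The share of JUND went from 38.3 ± 6.61 to 5.57 ± 1.33%, and that of JUN from 12.5 ± 1.37 to 4.53 ± 0.633%, although the JUN level itself rose. The JUN family as a whole went from 83.2 ± 3.62 to 56.6 ± 5.72%, and the FOS family from 4.35 ± 0.405 to 1.91 ± 0.172%. Each of these shares gave the smallest p of the exact permutation test, 0.1 (0.108 adjusted over 13 shares), whereas the ATF3 share, 4.29% and 4.10%, gave p = 0.6 in the same exact test.

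**Figure D3:**
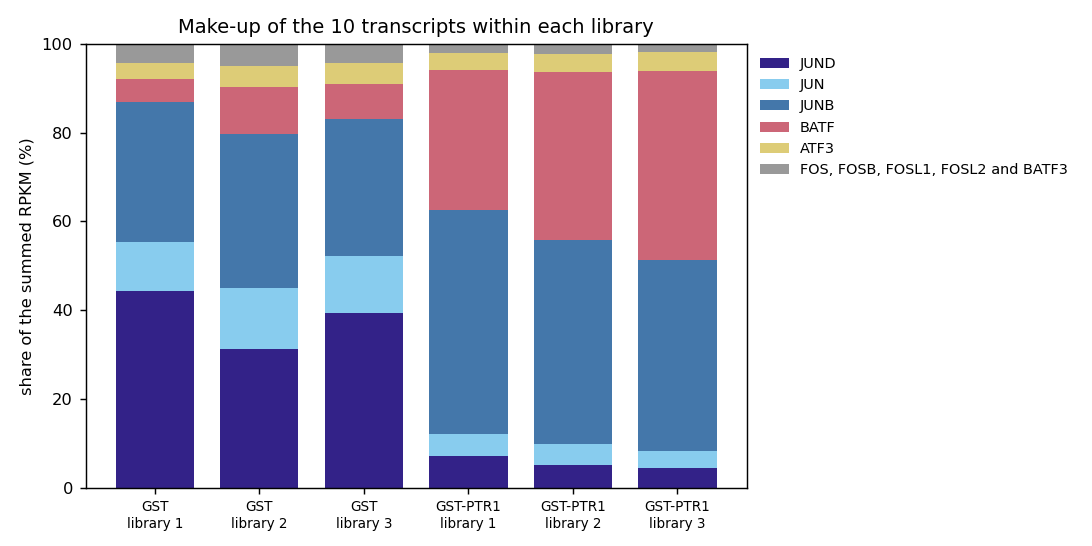
Share of the summed RPKM of the 10 genes, in percent, taken by each gene in each of the 6 libraries. JUND (dark blue) and JUNB (mid blue) take most of the GST bars, and JUNB and BATF (red) take most of the GST-PTR1 bars.

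Ratios within a library do not depend on the scaling between libraries. JUNB stood to JUND at 0.714, 1.12 and 0.781 in RPKM with GST and at 7.15, 9.01 and 9.46 with GST-PTR1. JUNB stood to JUN at 2.87, 2.54 and 2.39, and then at 9.99, 9.77 and 11.2. BATF stood to JUNB at 0.168, 0.305 and 0.259 with GST and at 0.625, 0.821 and 0.993 with GST-PTR1. In each of these ratios the treatments did not overlap, and the values with GST-PTR1 were all higher. BATF stood to BATF3 at a mean of 56.4 and then 477, and ATF3 to JUN at 0.341 and then 0.923, again without overlap. FOSL2 stood to FOS at 3.00 ± 0.803 and 3.81 ± 0.612, which overlapped. Of the 7 ratios compared, FOSL2 to FOS gave p = 0.2 in the exact permutation test and each of the others gave the smallest p possible, 0.1 (0.117 adjusted over 7).

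The RNA of genes listed as partners of BATF was examined next, and no protein was measured. Of 9 such genes, 8 (88.9%) rose and none fell, against 9.15% higher and 11.4% lower among all tested genes. Their median log2 fold change was 1.35. The list was chosen with earlier results of these data known. With at least 10 counts required in every library, 8 were tested, of which 7 rose. Of the IRF factors that join BATF and JUN on composite elements, IRF4 went from 275 to 433 CPM (log2 fold change 0.65, SE 0.10) and IRF8 from 47.4 to 151 CPM (1.67, SE 0.11). PRDM1, the repressor that drives plasma cell differentiation, went from 59.3 to 151 CPM (1.35), and STAT3, a cytokine-activated factor, from 64.1 to 197 CPM (1.62). PRDM1 is counted among the BATF targets as well, and whether any listed gene pairs with BATF was not tested. The ETS factors ETV6 (0.96) and SPIB (2.00) rose, as did CEBPB (1.75) and CEBPG (0.40), which can pair with bZIP proteins. SPIB had 9, 8 and 23 counts in the GST libraries and passed the filter on low counts only with its GST-PTR1 libraries. It was the gene not tested when 10 counts were required in every library. The call of CEBPG held in 1 of 6 fits with a library left out, without GST-PTR1 library 2. DDIT3, a stress-induced bZIP factor, had a log2 fold change of -0.34 and did not pass (adjusted p = 0.248, edgeR). With plain library totals, 7 rose and 1 fell.

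**Figure D4:**
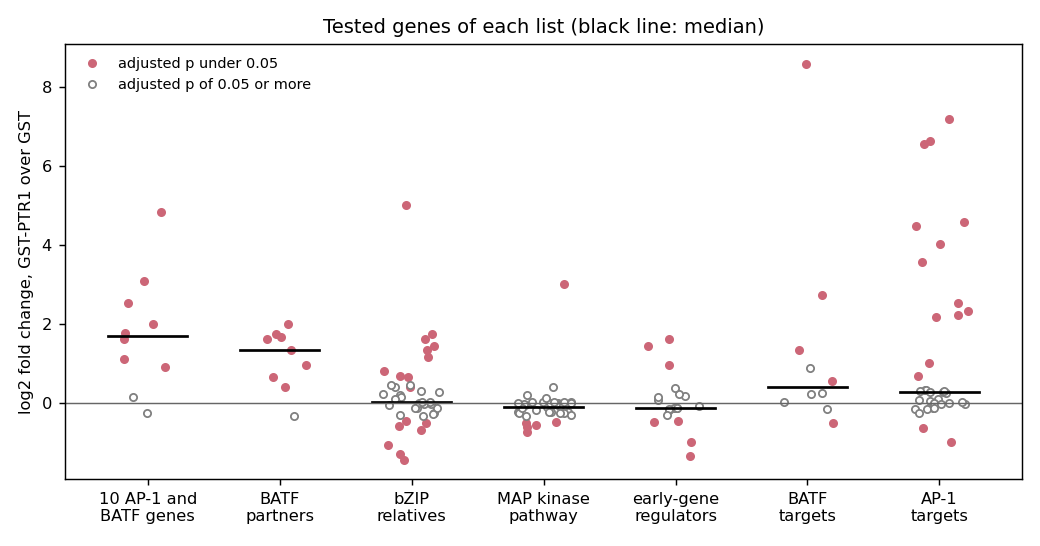
Log2 fold change of every tested gene in each list, red where the adjusted p was under 0.05 and open otherwise, with the list median as a black line. The medians of the 10 AP-1 and BATF genes (1.70) and of the BATF partners (1.35) lie highest, and those of the other lists lie between -0.12 and 0.39. The lists were chosen with earlier results of these data known, so the order of their medians is a description only. Some genes are in several lists. The fitted values of IL6 and PTGS2 among the AP-1 targets are no bounds, since both were at 3 counts or fewer in each GST library.

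Other basic leucine zipper (bZIP) genes moved both ways. Of 39 tested relatives, 10 (25.6%) rose and 7 (17.9%) fell, against 9.15% and 11.4% of all tested genes. Their median log2 fold change was 0.02, close to that of all genes. With at least 10 counts required in every library, 36 were tested, of which 9 rose and 6 fell. CEBPD, an acute-phase factor, went from 0.467 to 15.0 CPM (log2 fold change 5.01), BACH1, a heme-regulated repressor, from 47.4 to 128 CPM (1.44), and NFE2L3 from 84.5 to 214 CPM (1.34). CEBPD had 9, 8 and 12 counts in the GST libraries and passed the filter on low counts only with its GST-PTR1 libraries. It was not tested when 10 counts were required in every library. DBP, a circadian output factor, fell from 9.77 to 3.95 CPM (-1.30), CREB3L2 from 47.2 to 22.5 CPM (-1.07) and CREB3L4 from 15.7 to 9.66 CPM (-0.70). With plain library totals the split was 9 up and 11 down. Without GST library 1 or 3, or GST-PTR1 library 2 or 3, 4 fell in place of 7. DBP, CREB3L2 and CREB3L4 kept their calls whichever library was left out.

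Genes that act upstream of AP-1 were counted as well. Of 36 tested MAP kinase pathway genes, 1 (2.78%) rose and 5 (13.9%) fell, against 9.15% and 11.4% of all tested genes, with a median log2 fold change of -0.09. The one that rose was MAP3K8, a kinase held in check by the NF-kB precursor p105, which went from 11.7 to 94.5 CPM (log2 fold change 3.01, SE 0.11, edgeR adjusted p = 2.29e-08). RPS6KA2 (-0.75), MAPK13 (-0.61) and MAPK3 (-0.52) fell, and with plain library totals 1 rose and 15 fell. Of 19 tested factors that bind the promoters of early genes, 3 (15.8%) rose and 4 (21.1%) fell, with a median of -0.12. Among those that rose were STAT3, which is also listed among the BATF partners, and ETS2 (from 39.7 to 108 CPM, 1.45). MEF2D (-0.99), EGR1 (-1.34, from 1.16 to 0.461 CPM) and MRTFB (-0.49) fell. EGR1 had 15, 9 and 15 counts in the GST-PTR1 libraries and passed the filter on low counts only through its GST libraries. Of the 4 that fell, MEF2D kept its call whichever library was left out, whereas EGR1 kept it in 2 of 6 such fits and MRTFB in 1 of 6. After thinning, or without GST library 1, GST-PTR1 library 2 or GST-PTR1 library 3, only 1 fell. With at least 10 counts required in every library, 18 of these factors were tested, of which 3 rose and 3 fell. EGR1 was not tested there.

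Genes known from other cells as targets of BATF or AP-1 were counted last. Of 10 tested BATF targets, 4 (40%) rose and 1 (10%) fell, against 9.15% and 11.4% of all tested genes. Their median log2 fold change was 0.39. IL10, an anti-inflammatory cytokine, went from 0.835 to 319 CPM (8.60), and BCL6, a germinal center repressor, from 3.49 to 22.9 CPM (2.73). PRDM1, counted in the list of BATF partners as well, rose as given above. MAF, itself a bZIP factor, fell from 631 to 440 CPM (-0.52, edgeR adjusted p = 0.0418). MAF lost its call without GST library 1 or 3 and without GST-PTR1 library 2 or 3, with adjusted p up to 0.111, and then no BATF target fell. Of 35 tested AP-1 targets, 13 (37.1%) rose and 2 (5.71%) fell. Their median was 0.27 and stayed at 0.27 with genes at the limit of detection set to their bound. These bounds, log2 fold changes of 5.18 and 6.01, lie far above the median, so setting them could not move it. Some that rose, PTGS2 among them, passed the filter on low counts only through their GST-PTR1 libraries. With at least 10 counts required in every library, 30 were tested, of which 9 rose and 2 fell. The chemokine CXCL8 went from 2.96 to 303 CPM (6.65) and the adhesion molecule ICAM1 from 361 to 1820 CPM (2.33). PTGS2, the inducible cyclooxygenase, had 2, 1 and 3 counts with GST and a mean of 9.49 CPM with GST-PTR1, at least 64.3-fold higher against a limit of 3 counts per library. KRT18 (-0.65) and HMOX1, heme oxygenase (from 49.9 to 25.0 CPM), fell. Whether any of these genes responded to AP-1 was not tested.

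The genes whose pattern over the 6 libraries was most like that of BATF were GBP5, CXCL9 and IL2RA. Likeness was the root mean square difference of centered log2 CPM over the 6 libraries, compared for 11836 genes, and was 0.197, 0.227 and 0.251 in turn. GBP5, an interferon-induced GTPase, had means of 1.77 and 55.2 CPM, the chemokine CXCL9 of 136 and 3760 CPM, and IL2RA, a chain of the interleukin-2 receptor, of 0.0893 and 16.8 CPM, the former near the limit of detection. The fitted log2 fold change was 4.92 for GBP5 and 4.79 for CXCL9, against 4.85 for BATF. That of IL2RA was 7.40, so its likeness to BATF rests on the 0.5 CPM added before taking logs.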

How the data were processed

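RPMI8226 RNA-Seq libraries, 3 per treatment, were analyzed. The authors deposited a table of read counts, whole numbers per gene, made with featureCounts 1.5.0-p1 on the Ensembl 75 annotation of GRCh37, by strand, with exon lengths. Their processing notes also name FastQC, Subread and limma. The deposited counts were not normalized. CPM and RPKM were computed from them on TMM-scaled totals. Libraries were assigned to a treatment by column name and numbered 1 to 3 by increasing total. Since column numbers do not match the replicate numbers, no pairing was used. No libraries differed by less than sampling noise (smallest chi-square per gene 8.37).

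Tests used R 4.3.3 and edgeR 4.0.16 (filterByExpr, TMM, glmQLFit, glmQLFTest) with Benjamini-Hochberg adjustment over 16926 genes and a threshold of 0.05. SEs are the log2 fold change over the root of F. Likeness used log2(CPM + 0.5). The limit of detection, 3 counts, covers counting error only. Alternatives included limma 3.58.1 voom, DESeq2 1.42.0, other scaling and filters. The code was tested on simulated data. Promoters came from RefSeq (GRCh38.p14), in which 8 of the 10 genes were found, and FOSL1 and BATF3 were not. The 10 genes and all lists were chosen with earlier results of these data known. Named were all 10, all BATF partners, and of each list up to 3 genes that rose and 3 that fell with the smallest adjusted p, plus the 3 genes most like BATF. A gene that this rule would name is not reported here.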

Additional observations from a re-analysis of the deposited data

How the results depend on the processing

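JUN, JUNB, FOS, FOSL1, FOSL2, ATF3, BATF and BATF3 passed under each other scaling, test, filter and left-out library in which they were tested. A filter of 10 counts left 9 members, without BATF3, of which 7 passed. Tested against a 1.5-fold change, 7 of 10 passed, and FOSL1 did not (adjusted p = 0.145, edgeR glmTreat). JUND ran from -0.48 to 0.02 and FOSB from -0.19 to 0.80 on the log2 scale and neither passed. JUND turned without GST library 1 (0.01) and with the GC trend removed (0.02), and FOSB with library totals (-0.07), without GST library 2 (-0.08) and without GST library 3 (-0.19). Libraries are numbered by increasing total, not by the replicate numbers of the samples. The cause was not tested. With library totals 16 MAP kinase genes were called in place of 6. With libraries thinned to 1 depth, 4 early-gene regulators were called in place of 7. Leaving out 1 library gave 4 to 6 early-gene regulators, lowest without GST-PTR1 library 2, and 3 to 6 BATF targets, lowest without GST library 3 or GST-PTR1 library 2, and 4 to 6 MAP kinase genes. With shares of summed counts in place of RPKM, JUNB rose by 21.6 and BATF by 17.7 percentage points, against 14.1 and 29.4, and ATF3 by 1.55 against -0.188. Leaving out 1 library moved the ATF3 share between -0.555 and 0.00844, the latter without GST library 3. In the 4 libraries that share column numbers, 8 members were called with a replicate block and 8 without it. Same-numbered libraries deviated together with r of -0.06 and 0.32, so the numbers were not used as pairs, and the libraries share only a number. That fit and the GC trend were chosen after seeing the data. Counts were low for FOSB, FOS and BATF3, at 5 to 28 in the GST libraries.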

Other observations

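Several of these genes lie near each other. On GRCh37 chromosome 14, FOS and BATF lie within 267882 bases, an interval with 6 annotated genes, of which 4 were tested. Between them lies JDP2, a bZIP repressor of AP-1, which rose from 13.9 ± 1.20 to 31.4 ± 1.41 CPM (SD, n = 3 each, log2 fold change 1.17, edgeR adjusted p = 4.46e-05). The antisense transcript JDP2-AS1 fell from 3.11 to 1.86 CPM (-0.74, edgeR adjusted p = 0.0168) while FOS, JDP2 and BATF rose. On chromosome 1, ATF3 and BATF3 lie within 134652 bases with 8 annotated genes, of which these 2 were the only ones tested, and both rose.

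The 8 plasma cell markers moved both ways. SDC1, the plasma cell surface proteoglycan, TNFRSF17 and XBP1 fell (log2 fold changes of -1.03, -1.41 and -0.47), and PRDM1 and IRF4 rose (1.35 and 0.65), all past an adjusted p of 0.05 in edgeR's test. CD38 (0.16), MZB1 (-0.10) and JCHAIN (0.07) did not pass. XBP1 lost its call without GST library 3 or GST-PTR1 library 2. The summed level of the 8 plasma cell markers was 4070 to 4780 CPM with GST and 3940 to 4890 CPM with GST-PTR1. The part of these genes in the results for BATF was not tested. Of the 3 epithelial markers, EPCAM was at 61.6 to 77.0 CPM over the 6 libraries, whereas KRT8 was at 1.12 to 2.32 CPM and KRT19 at 0 CPM.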
